A study of Drosophila melanogaster with 5 samples.

Results

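The genes described here are 10 core genes of macroautophagy in Drosophila melanogaster, Atg1, Atg2, Atg5, Atg7, Atg8a, Atg9, Atg13, Atg17, Atg18a and ref(2)P. They were taken by name from the 17735 genes counted in the series, with earlier results of these data known. All 10 were found and passed the filter on low counts. RNA-seq of polyadenylated RNA had been performed on pools of whole 3rd-instar larvae of 2 genotypes. The CG1603attP larvae (3 biological replicates) were homozygous for a deletion of CG1603, the gene of the zinc-finger protein Mzfp1. Their CG1603 gene was exchanged for an attP site and a 3P3:dsRed reporter by CRISPR/Cas9 in the y1w1118 line, and the deletion was represented by that allele alone, kept over a CyO,GFP balancer because its homozygotes die as larvae. The y1w1118 larvae (2 biological replicates) carried the same y1 and w1118 alleles with CG1603 intact, and both strains were reared at 25°C, with no larval age in hours given in the sources used here. The comparison addresses how the transcripts of the autophagy machinery differed between larvae without and with CG1603.

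Macroautophagy encloses cytoplasm, aggregates or organelles in a double membrane, the autophagosome, which then fuses with the lysosome where the content is degraded. The process starts with the Atg1 kinase complex, receives lipid through Atg9 and the Atg2 and Atg18 proteins under the control of a class III phosphatidylinositol 3-kinase, and is completed by the conjugation of Atg8 to lipid. In fly larvae, starvation induces it in the fat body, TOR signalling restrains it, and the steroid hormone ecdysone starts a developmental wave of it at the end of larval life.

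CG1603 itself had 0, 0 and 3 reads in the CG1603attP libraries, against 124 and 102 reads in the y1w1118 libraries, so the deleted gene was at or near 0 in every library labelled as mutant (edgeR's quasi-likelihood test, adjusted p = 0.00445). Between 9310913 and 14514277 reads per CG1603attP library and 9044930 and 10954811 per y1w1118 library were assigned to genes, and values are given below as CPM, the reads of a gene scaled to a common library size with TMM factors. A single read was worth at most 0.116 CPM. Ribosomal RNA genes, left out of these totals, had taken 3.40 to 4.57% of gene reads in CG1603attP and 8.04 to 9.62% in y1w1118. Libraries of a genotype differed from each other in some genes of the ecdysone response, of which a pair is given here, picked after the values were seen. Eip74EF, an ecdysone-induced transcription factor, was at 82.5, 26.2 and 31.0 CPM in CG1603attP replicates 1, 2 and 3, against 24.2 and 93.3 CPM in y1w1118 replicates 1 and 2. The nuclear receptor gene ftz-f1 was at 334, 231 and 227 CPM in CG1603attP, against 20.0 and 116 CPM in y1w1118. For Eip74EF, CG1603attP replicate 1 and y1w1118 replicate 2 were thus the high libraries, and these are called the discordant pair below. With 2 wild-type libraries it cannot be told which of them is the unusual one, and y1w1118 replicate 1 was the low one for ftz-f1. Counts of calls are also given without the discordant pair.

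Of the 10 autophagy genes, 8 were higher in CG1603attP, 0 were lower, and Atg5 and Atg7 did not pass the test, a call being an adjusted p under 0.05 after Benjamini-Hochberg adjustment over all 11045 genes tested. Over all genes tested 14.6% were called higher and 15.7% lower, 30.4% in either direction. The same 2 counts, 8 and 0, were obtained at an unadjusted p under 0.05 and with DESeq2. At that unadjusted p, 2279 of all genes tested were higher and 2338 lower. The summed level of the 10 genes was 3046, 2830.2 and 2851 CPM in the CG1603attP libraries, against 1017 and 962 CPM in the y1w1118 libraries. The genotypes do not overlap in these sums, and libraries of one genotype lie close to each other. In 9 of the 10 genes every CG1603attP library was above every y1w1118 library, an ordering seen in 28.9% of all genes tested. The opposite ordering was found in 0 of the 10, against 30.8% of all genes tested, and 59.7% of all genes had one or the other. The median log2 fold change was 1.06 over the 10 genes, against -0.01 over all genes tested. Without the discordant pair (CG1603attP replicate 1 and y1w1118 replicate 2) the number of members called higher was 5, with Atg2, Atg17 and Atg18a no longer past the threshold, while 607 of the genes tested were then called higher, against 1618 with all libraries. As the libraries were made from whole larvae, a change in the number of cells of a type and a change in RNA per cell cannot be told apart.

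**Figure D1:**
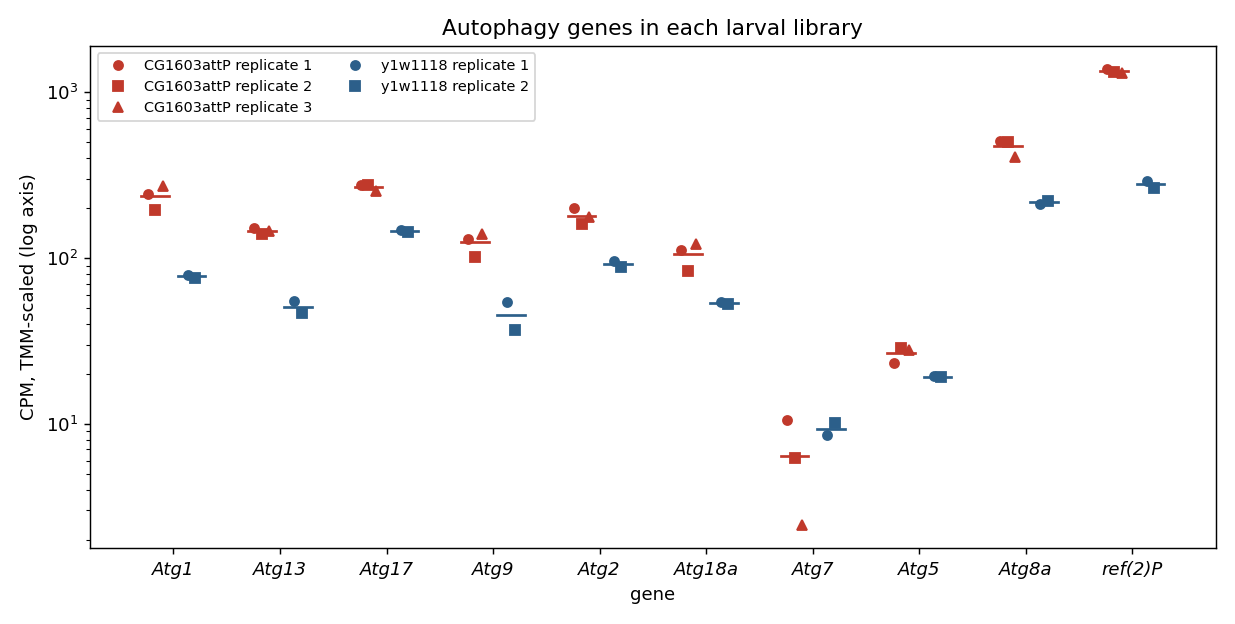
CPM of each of the 10 autophagy genes (log axis) in the 3 CG1603attP libraries (red) and the 2 y1w1118 libraries (blue), with horizontal lines at the group means. Every red point lies above every blue point for all genes except Atg7, and the gap is widest for ref(2)P, at 1302 to 1388 CPM in CG1603attP against 267 to 289.9 CPM in y1w1118.

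The initiation complex was represented by the kinase Atg1, its regulatory partner Atg13 and the scaffold Atg17, the fly counterpart of FIP200. Atg1 (FBgn0260945, minus strand of 3L from 12784429 to 12805116 in dm6) had 244, 196 and 273 CPM in CG1603attP replicates 1, 2 and 3, against 79.1 and 76.2 CPM in y1w1118 replicates 1 and 2. The lowest mutant library, replicate 2, was 2.47 times the highest wild-type one, and the spread lay within the mutant group. Atg1 was thus 3.06-fold higher in CG1603attP, a log2 fold change of 1.61 with a standard error (SE) of 0.17 (edgeR, adjusted p = 0.00117). Atg13 (FBgn0261108, plus strand of 3R from 8349815 to 8352817, a single exon) had 151, 139.98 and 145 CPM in CG1603attP, against 55.2 and 46.3 CPM in y1w1118. The 3 mutant libraries were close to each other, with an SD of 5.58 CPM around a mean of 145 CPM, and stood clear of both wild-type libraries. Atg13 was 2.86-fold higher (log2 fold change 1.52, SE 0.13, edgeR adjusted p = 0.000705). It is the one member on the study's list of euchromatic genes with an Mzfp1 motif in a bound promoter, and the other 9 members are on none of the study's promoter lists. Of the partner genes described below, Atg16, which was not called, is on the same list, and Syx17, which was called higher, is on the list of euchromatic genes without the motif. The study presents its promoter lists with binding sites found in embryos, and it reports more sites in adult flies. Absence from the lists therefore does not show that a promoter was unbound in larvae.

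Atg17 (FBgn0037363, plus strand of 3R from 5669713 to 5679930) changed less than its partners. It had 276, 275 and 254 CPM in CG1603attP, against 148 and 144 CPM in y1w1118, and neither group spread by more than a small part of the distance between them. The fold was 1.84 (log2 fold change 0.88, SE 0.11, edgeR adjusted p = 0.00194). The call was lost without the discordant pair, where the log2 fold change was 0.82 and the adjusted p 0.0645.

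Membrane supply was represented by Atg9, the transmembrane protein of the vesicles that seed the autophagosome, by Atg2, a lipid transfer protein, and by Atg18a, which binds phosphatidylinositol 3-phosphate and works with Atg2. Atg9 (FBgn0034110, plus strand of 2R from 16294400 to 16297232) had 131, 102 and 141 CPM in CG1603attP, against 54.0 and 36.8 CPM in y1w1118. Both groups were spread, with CG1603attP replicate 2 lowest in its group and y1w1118 replicate 2 lowest in its own, but they did not overlap. The log2 fold change of 1.45 (2.74-fold) therefore had the larger SE of 0.23 (edgeR adjusted p = 0.00458). Atg2 (FBgn0044452, plus strand of 3L from 2774338 to 2780677) had 201, 161 and 178 CPM in CG1603attP, against 95.8 and 88.9 CPM in y1w1118. All mutant libraries were higher, by 1.95-fold on average (log2 fold change 0.96, SE 0.14, edgeR adjusted p = 0.00334).

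Atg18a (FBgn0035850, plus strand of 3L from 8186857 to 8191118) had 113, 83.7 and 122 CPM in CG1603attP, against 54.1 and 52.9 CPM in y1w1118. The wild-type libraries nearly coincided and the mutant ones were spread, with replicate 2 again lowest. Its fold was 1.98 (log2 fold change 0.99, SE 0.19, edgeR adjusted p = 0.00994), the weakest call among the 8. The adjusted p was 0.0793 without y1w1118 replicate 1 and 0.0765 without y1w1118 replicate 2, so the call needed both wild-type libraries. Without the discordant pair it was 0.0783 for Atg18a and 0.0812 for Atg2.

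The conjugation system, which attaches Atg8a to lipid and Atg12 to Atg5, held the members that did not pass the test. Atg7 (FBgn0034366, minus strand of 2R from 18620466 to 18625044), the E1-like enzyme that activates Atg8a and Atg12, had 10.5, 6.25 and 2.44 CPM in CG1603attP, against 8.54 and 10.1 CPM in y1w1118. These values rest on 157, 86 and 23 reads in the mutant libraries and 87 reads in each wild-type library, and the groups overlapped. The mutant libraries alone differed 4.30-fold, against a median of 1.48-fold over all genes tested. The log2 fold change was -0.53, with a 95% confidence interval of -1.92 to 0.85 and an SE of 0.58 (edgeR adjusted p = 0.538), so changes of a factor over 1.5 in either direction lie within it. Atg5 (FBgn0029943, minus strand of X from 7314622 to 7323770) had 23.1, 28.8 and 27.8 CPM in CG1603attP, against 19.3 and 19.0 CPM in y1w1118. The groups did not overlap, yet the lowest mutant library was only 1.19 times the highest wild-type one. Its log2 fold change of 0.47 had an interval of -0.02 to 0.96 (edgeR adjusted p = 0.133), which includes no change as well as nearly a doubling.

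Atg8a (FBgn0052672, minus strand of X from 10764878 to 10768338), the ubiquitin-like protein that is itself attached to the autophagosomal membrane, did pass the test. It had 509, 503 and 406 CPM in CG1603attP, against 213 and 220.4 CPM in y1w1118. CG1603attP replicate 3 was lowest of the mutants and still 1.84 times the higher wild-type library. The fold was 2.18 (log2 fold change 1.13, SE 0.14, edgeR adjusted p = 0.00206).

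The receptor ref(2)P (FBgn0003231, plus strand of 2L from 19542468 to 19545548), the fly p62, binds ubiquitinated cargo and Atg8a and is degraded together with its cargo. It had the highest fold change of the members, with 1388, 1335 and 1302 CPM in CG1603attP, against 289.9 and 267 CPM in y1w1118. The mutant libraries held 20788, 18379 and 12301 reads of it and the wild-type ones 2953 and 2298, so counting error was small beside the difference. The means were 1342 ± 43.3 CPM in CG1603attP and 278 ± 16.5 CPM in y1w1118 (SD, n = 3 and 2). The fold was 4.82 (log2 fold change 2.27, SE 0.12, 95% interval 1.98 to 2.56, edgeR adjusted p = 0.000224). Of the 11045 genes tested, 342 had a higher log2 fold change and 29 a smaller p. In the annotation 173 bp of ref(2)P, 7.22% of its exon length, overlap exons of CG10337 on the opposite strand. The library kit did not mark strand and reads over both genes were set aside as ambiguous. CG10337 moved the other way, with a log2 fold change of -2.01 (SE 0.29, edgeR adjusted p = 0.00341). The other 9 members share no exon with another counted gene.

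Levels were compared between genes as RPKM, the CPM per kilobase of merged exon. In CG1603attP ref(2)P was highest at 560.3 ± 18.1 RPKM, followed by Atg8a at 279 ± 34.1 RPKM (SD, n = 3). In y1w1118 Atg8a was at 128 ± 3.25 RPKM and ref(2)P at 116 ± 6.87 RPKM (SD, n = 2), and their order was the reverse of that in the mutant. The libraries of these 2 genes did not overlap with each other in either genotype, at 544 to 579.6 and 239 to 300.2 RPKM in CG1603attP, and at 111 to 121 and 125 to 130.04 RPKM in y1w1118.

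Below these came a group of 6 genes with levels near each other. Their CG1603attP means ran from 28.7 RPKM for Atg2 through 36.3 for Atg18a, 42.6 for Atg17, 43.9 for Atg9 and 48.4 for Atg13 to 57.2 RPKM for Atg1. In y1w1118 they ran from 14.7 RPKM for Atg2 through 16.0 for Atg9, 16.9 for Atg13, 18.3 for Atg18a and 18.7 for Atg1 to 23.2 RPKM for Atg17. Neighbours in both orders overlapped between libraries, for instance Atg9 and Atg17 in the mutant at 36.0 to 49.6 and 40.4 to 43.8 RPKM, except that Atg17 in y1w1118, at 22.9 to 23.5 RPKM, stood above the libraries of the other 5. Atg1 and Atg13, which were below Atg17 in wild type, had higher means than it in CG1603attP. Atg5 followed at 18.7 RPKM in CG1603attP and 13.5 RPKM in y1w1118, and Atg7 was lowest in both, at 2.67 RPKM in CG1603attP and 3.89 RPKM in y1w1118.

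The proportions of the members to each other were compared as well. Ratios of reads within a library use no scaling between libraries and are given as descriptions. Reads of ref(2)P were 45.6, 47.2 and 45.7% of all reads of the 10 genes in CG1603attP, against 28.5 and 27.7% in y1w1118. Without ref(2)P the summed level of the other 9 genes was 1658, 1495 and 1549 CPM in CG1603attP, against 727 and 695 CPM in y1w1118, still 2.20-fold higher. The increase of the sum was thus not carried by ref(2)P alone. The 10 genes took 0.314, 0.304 and 0.289% of all gene reads in CG1603attP, against 0.0946 and 0.0916% in y1w1118.

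There were 2.73, 2.66 and 3.21 ref(2)P reads per Atg8a read in CG1603attP, against 1.36 and 1.21 in y1w1118, a ratio 2.23 times as high with no overlap. Within the initiation complex, Atg1 reads per Atg17 read were 0.885, 0.710 and 1.07 in CG1603attP, against 0.534 and 0.528 in y1w1118. Atg13 reads per Atg17 read behaved alike, at 0.548, 0.508 and 0.570 in CG1603attP, against 0.372 and 0.321 in y1w1118. Relative to the scaffold, the kinase and its regulator were thus higher in each mutant library than in either wild-type one. Between Atg1 and Atg13 the ratio was 1.62, 1.40 and 1.88 in CG1603attP, against 1.43 and 1.65 in y1w1118, and the genotypes overlapped. The same held for Atg18a per Atg2, at 0.561, 0.521 and 0.685 in CG1603attP, against 0.565 and 0.595 in y1w1118. Atg9 per Atg2 did not overlap, at 0.653, 0.635 and 0.789 in CG1603attP, against 0.564 and 0.414 in y1w1118.

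**Figure D2:**
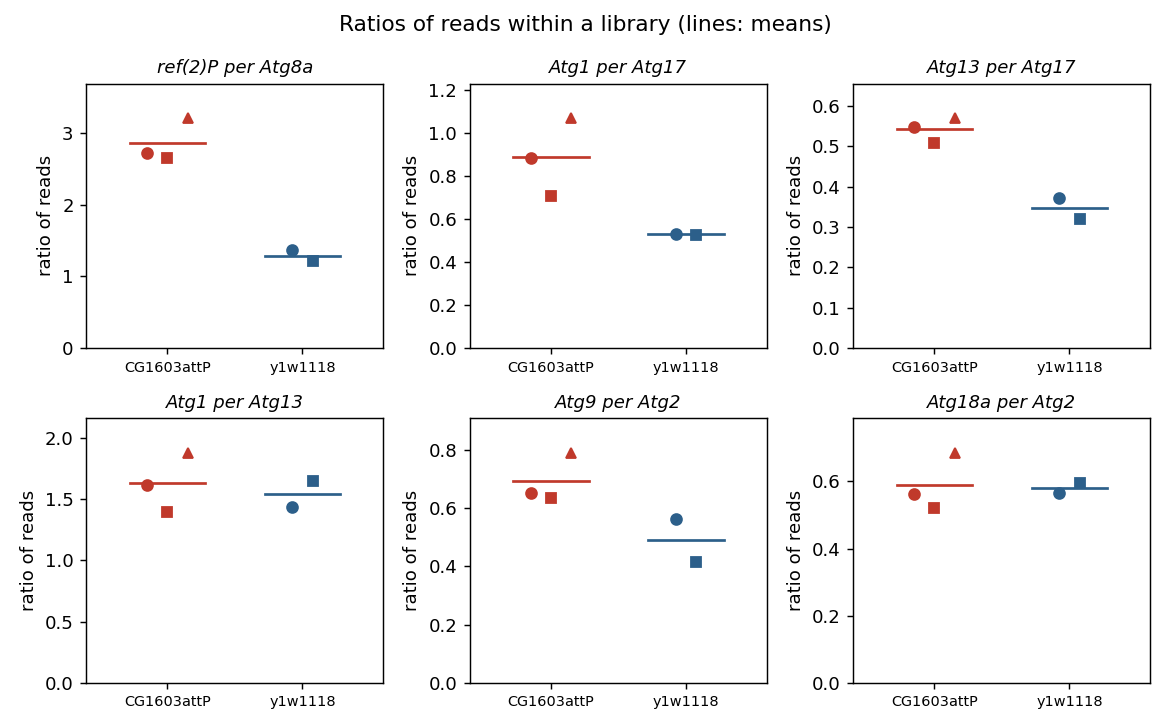
Ratios of reads of pairs of autophagy genes within each library, linear axes from 0, CG1603attP in red (circle, square and triangle for replicates 1, 2 and 3) and y1w1118 in blue, with lines at the group means. Genotypes do not overlap for ref(2)P per Atg8a, Atg1 per Atg17, Atg13 per Atg17 and Atg9 per Atg2, and do overlap for Atg1 per Atg13 and Atg18a per Atg2.

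The mutant libraries did not rank the members alike. Replicate 2 was the lowest mutant library for 5 genes (Atg1, Atg2, Atg9, Atg13 and Atg18a), replicate 3 for 4 (Atg7, Atg8a, Atg17 and ref(2)P) and replicate 1 for Atg5 alone. In y1w1118, replicate 2 was below replicate 1 for 8 of the 10 genes, the exceptions being Atg7 and Atg8a. The lowest mutant value exceeded the highest wild-type value by a factor of 4.49 for ref(2)P, 2.54 for Atg13, 1.89 for Atg9, 1.72 for Atg17, 1.68 for Atg2 and 1.55 for Atg18a.

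The members lie on X, 2L, 2R, 3L and 3R, and the nearest tested gene on either side of each was examined as well. Of the 16 neighbours of the 8 members called higher, 2 were higher, 2 lower and 12 not called, with a median log2 fold change of 0.05. Over the 20 neighbours of all members, 4 were higher and 2 lower, with a median of 0.25. CG5323 and CG5335, the neighbours of Atg7, were among those called higher. The shares over all genes tested were 14.6% higher and 15.7% lower. Atg8a lies 464 bp from Tango5, the fly VMP1 and itself a part of the machinery, whose log2 fold change was 0.30 (edgeR adjusted p = 0.228). The neighbours of Atg13 were CG7352, 518 bp away, with a log2 fold change of -0.67 (SE 1.06, edgeR adjusted p = 0.680), and stck, which was called higher at 0.62 (edgeR adjusted p = 0.00869). On one side of Atg2, mRpS35, which codes for a mitochondrial ribosomal protein, was called lower at -1.63 (edgeR adjusted p = 0.00555) at a distance of 221 bp.

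A further 34 genes that act with the members were listed, and 33 were tested. In CG1603attP 11 of them were higher, 0 were lower and 22 were not called (edgeR), against 14.6% higher among all genes tested. At an unadjusted p under 0.05 there were 17 higher and 0 lower, against 2279 and 2338 of the 11045 genes tested. DESeq2 called 17 higher and 0 lower as well. The median log2 fold change of the listed genes was 0.49. In 21 of them the mutant libraries were all above the wild-type ones and in 2 all below. Those orderings were seen in 28.9% and 30.8% of all genes tested. The summed level of the 34 genes was 1812 to 1969 CPM in CG1603attP, against 1242 to 1271 CPM in y1w1118. The count depended on the setting, with 17 higher by scaling on library size alone. It was smaller in the settings that left a single y1w1118 library, where calls over all genes fell as well. Scaling on library size alone moved the median of all genes tested to a log2 fold change of 0.13 and the split of all calls to 2080 higher and 1424 lower, against 1618 and 1735 with TMM.

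Among partners of the initiation complex, Atg101, which stabilises Atg13 in mammals, had 55.4, 50.8 and 34.4 CPM in CG1603attP, against 28.9 and 39.9 CPM in y1w1118. CG1603attP replicate 3 lay between the wild-type libraries, and the log2 fold change of 0.45 did not pass the test (95% interval -0.20 to 1.10, edgeR adjusted p = 0.264). Of the 5 genes of the class III phosphatidylinositol 3-kinase complexes, Pi3K59F and Atg6 were higher. Pi3K59F, the kinase itself (Vps34), had 44.1, 25.6 and 49.3 CPM in CG1603attP, against 11.9 and 7.77 CPM in y1w1118, a 4.03-fold difference with spread in both groups and no overlap (log2 fold change 2.01, SE 0.37, edgeR adjusted p = 0.00831). Atg6, the fly Beclin 1, was 1.86-fold higher (log2 fold change 0.90, edgeR adjusted p = 0.0195). Vps15, Atg14 and Uvrag had log2 fold changes of 0.76, 0.66 and 1.18 that did not pass the test.

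Atg18b, the paralog of Atg18a, had 83.2, 59.7 and 55.7 CPM in CG1603attP, against 20.6 and 31.3 CPM in y1w1118, and was 2.55-fold higher (log2 fold change 1.35, SE 0.28, edgeR adjusted p = 0.0123). Both paralogs were therefore called, and reads of Atg18a per read of Atg18b overlapped between genotypes, at 1.35, 1.40 and 2.19 in CG1603attP, against 2.62 and 1.69 in y1w1118.

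With edgeR 0 of the 6 conjugation partners tested were called, but Atg4a and Atg4b, which code for the proteases that process Atg8a, lay near the threshold. Their log2 fold changes were 0.87 and 0.75 (unadjusted p = 0.0155 and 0.0278, edgeR adjusted p = 0.0507 and 0.0781). Atg4a was called higher in 10 of the 18 alternative settings and Atg4b in 2, DESeq2 being among them for both genes. Of the exon length of Atg4a, 51.4% is shared with a gene on the opposite strand. Atg3, the E2-like enzyme for Atg8a, had 20.4, 22.1 and 30.2 CPM in CG1603attP, against 20.4 and 21.3 CPM in y1w1118. Its log2 fold change was 0.21, with an interval of -0.36 to 0.79 that excludes a doubling. Atg16, which forms the conjugating complex with Atg12 and Atg5, had 26.6, 29.2 and 35.5 CPM in CG1603attP, against 31.4 and 24.0 CPM in y1w1118, and the groups overlapped (log2 fold change 0.13, interval -0.41 to 0.68). Atg12 was low, at 2.96 to 3.78 CPM in CG1603attP and 3.13 to 3.83 CPM in y1w1118, and its interval of -1.12 to 1.14 leaves a doubling or a halving undetectable at this depth. Atg8b, the other Atg8 gene, had 0 reads in the CG1603attP libraries and 0 and 1 in y1w1118, a floor of at most 0.348 CPM for 3 reads, so nearly all Atg8 reads came from Atg8a.

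Of 4 genes of selective autophagy 3 were higher and 0 lower, against 14.6% and 15.7% of all genes tested. bchs, the fly Alfy, which links aggregates to the machinery, had 183, 176 and 158 CPM in CG1603attP, against 97.2 and 94.5 CPM in y1w1118 (log2 fold change 0.84, SE 0.12, edgeR adjusted p = 0.00318). Pink1, the kinase that marks damaged mitochondria, was 1.62-fold higher (log2 fold change 0.69, edgeR adjusted p = 0.0223), with 10.5% of its exon length shared with an overlapping gene. BNIP3, a mitophagy receptor, was 1.39-fold higher (log2 fold change 0.48, edgeR adjusted p = 0.0365).

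Among 15 genes of autophagosome fusion 5 were higher and 0 lower, against 14.6% and 15.7% of all genes tested. Rab7, the GTPase of late endosomes and lysosomes, had 236, 221 and 219 CPM in CG1603attP, against 116 and 115 CPM in y1w1118, with little spread in either group (log2 fold change 0.97, SE 0.11, edgeR adjusted p = 0.00140). Syx17, the autophagosomal SNARE, had 29.6, 26.7 and 17.6 CPM in CG1603attP, against 9.13 and 9.51 CPM in y1w1118 (log2 fold change 1.40, SE 0.29, edgeR adjusted p = 0.0129). The tether Epg5 was 1.40-fold higher and the HOPS subunit car 1.82-fold (log2 fold changes 0.49 and 0.87, edgeR adjusted p = 0.0322 and 0.0476). The other HOPS genes listed were not called. Their log2 fold changes were 0.46 for dor, 0.16 for Vps39, -0.03 for Vps16A, -0.18 for Vps11 and -0.20 for lt. For lt every CG1603attP library was below every y1w1118 library. Plekhm1, an adaptor of Rab7, was 1.58-fold higher with an adjusted p of 0.04998 in edgeR, just inside the threshold. Of the 11 calls in the wider machinery, that of Rab7 held in all 18 alternative settings. The calls of Pi3K59F, Atg18b and bchs were lost in 1 setting each, Pink1 and Syx17 in 3 each, Atg6 in 4, BNIP3 and Epg5 in 5 each, car in 9 and Plekhm1 in 12.

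**Figure D3:**
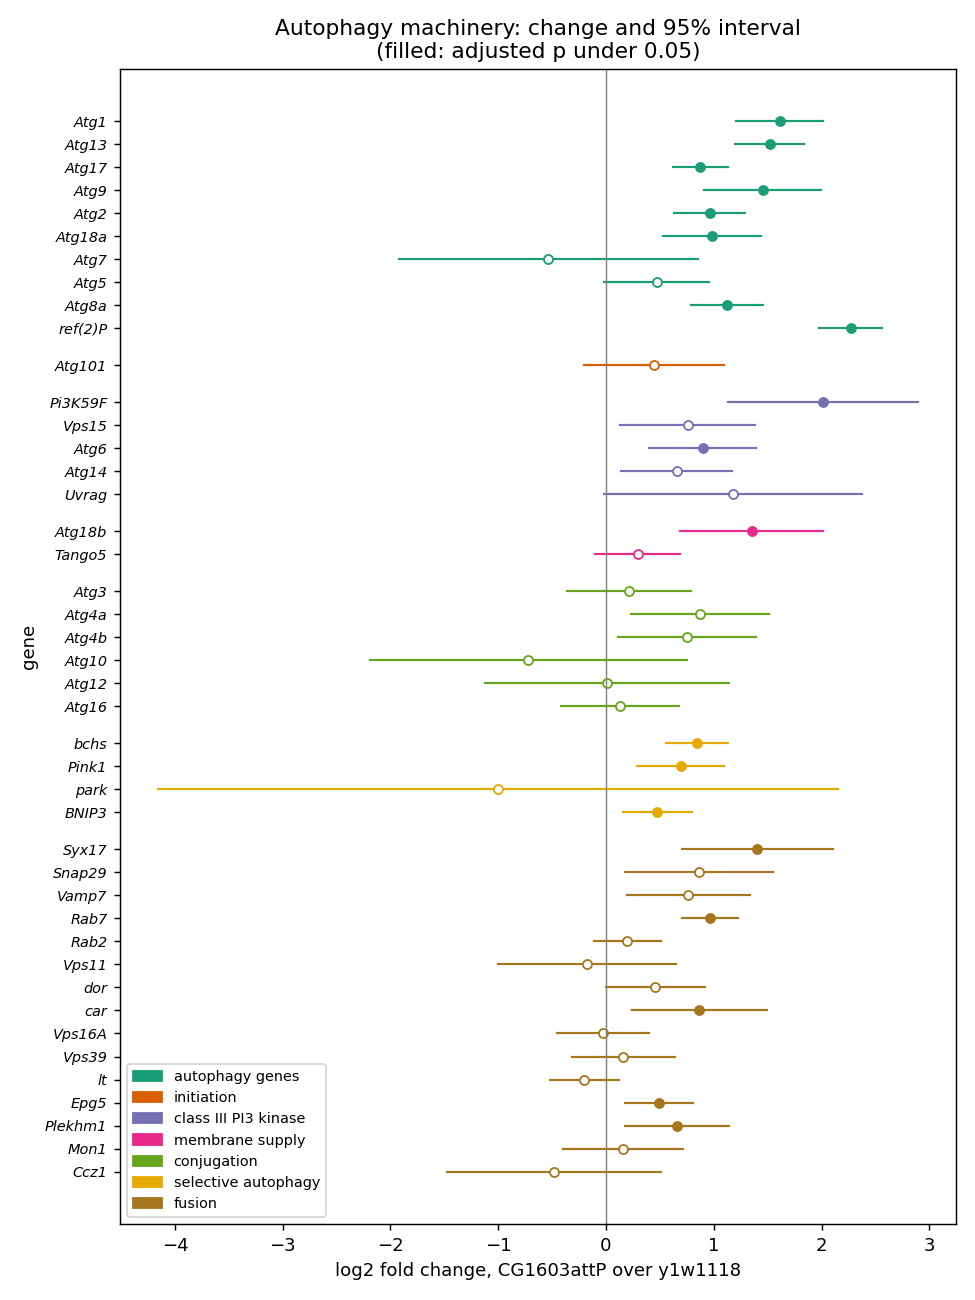
Log2 fold change of CG1603attP over y1w1118 with its 95% confidence interval for the 10 autophagy genes (top) and the 33 tested partner genes grouped by step, filled points having an adjusted p under 0.05. Filled points lie at positive values in every group that has any, from 0.48 for BNIP3 to 2.27 for ref(2)P, and the conjugation group has none in this fit, although Atg4a was called in 10 of the 18 alternative settings.

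Genes of the lysosome, of acidification and of upstream signalling were listed for comparison. Of 11 lysosomal genes tested, 5 were higher and 1 was lower in CG1603attP, with a median log2 fold change of 0.50. Over all genes tested, 14.6% were called higher and 15.7% lower. The cathepsins, the main lysosomal proteases, had the highest fold changes of the genes called in this list. CtsB had 525, 357 and 511 CPM in CG1603attP, against 147 and 119.6 CPM in y1w1118, a 3.48-fold difference (log2 fold change 1.80, edgeR adjusted p = 0.00170). cathD and CtsL1 were 2.47-fold and 2.40-fold higher (log2 fold changes 1.31 and 1.26, edgeR adjusted p = 0.00500 and 0.00244). The gene called lower was Cln7 (log2 fold change -0.80, edgeR adjusted p = 0.0357), and that call was lost under several settings. Mitf, the fly TFEB, which is known to activate lysosomal and autophagy genes, was not called, with a log2 fold change of -0.29 (edgeR adjusted p = 0.112).

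Subunits of the vacuolar ATPase, the proton pump of the lysosome, went mostly the other way, with 2 of 20 tested higher and 8 lower and a median log2 fold change of -0.30. The shares over all genes tested were 14.6% higher and 15.7% lower. Vha26 was the lowest of those called lower, at a log2 fold change of -0.995 (edgeR adjusted p = 0.00276). Vha100-4, which codes for a membrane subunit of the pump, was higher at 1.47 (edgeR adjusted p = 0.00229). Without the discordant pair, which left a single y1w1118 library, fewer subunits were called lower. Fewer of all genes tested were then called lower as well.

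In the TOR and AMPK list 6 of 17 genes were higher and 0 lower, with 8 and 1 at an unadjusted p under 0.05 and a median log2 fold change of 0.40. Among all 11045 genes tested, 14.6% were called higher and 15.7% lower, and 2279 and 2338 passed that unadjusted threshold. RagA-B, a GTPase that conveys amino acid supply to TOR, was 2.18-fold higher, and Thor, the translational repressor 4E-BP downstream of TOR, was 1.82-fold higher (edgeR adjusted p = 0.0116 and 0.0300). The AMP-activated kinase subunits AMPKalpha and alc were 1.75-fold and 1.86-fold higher (edgeR adjusted p = 0.0296 and 0.0138). Without the discordant pair, which left a single y1w1118 library, the calls in this list were lost. Fewer of all genes tested were then called higher as well.

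In the ecdysone list 1 of 13 tested genes was higher and 3 were lower, with a median log2 fold change of -0.33. The shares over all genes tested were 14.6% higher and 15.7% lower. At an unadjusted p under 0.05 there were 5 higher and 3 lower in the list, against 2279 and 2338 of the 11045 genes tested. With library size as the only scaling 4 genes of the list were called higher. The receptor gene EcR was called higher at a log2 fold change of 0.46 (edgeR adjusted p = 0.0287), a call that was lost in 4 of the 18 alternative settings. The hormone-inducible genes Hr4, E23 and ImpE1 were called lower at -1.92, -1.33 and -1.17 (edgeR adjusted p = 0.0129, 0.00106 and 0.0186). For ftz-f1 the log2 fold change was 1.96 with an SE of 0.67 and was not called (edgeR adjusted p = 0.0709), though it was called in 5 alternative settings. Without the discordant pair 1 gene of the list was called higher, ftz-f1 and no longer EcR, and 4 were called lower.

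**Figure D4:**
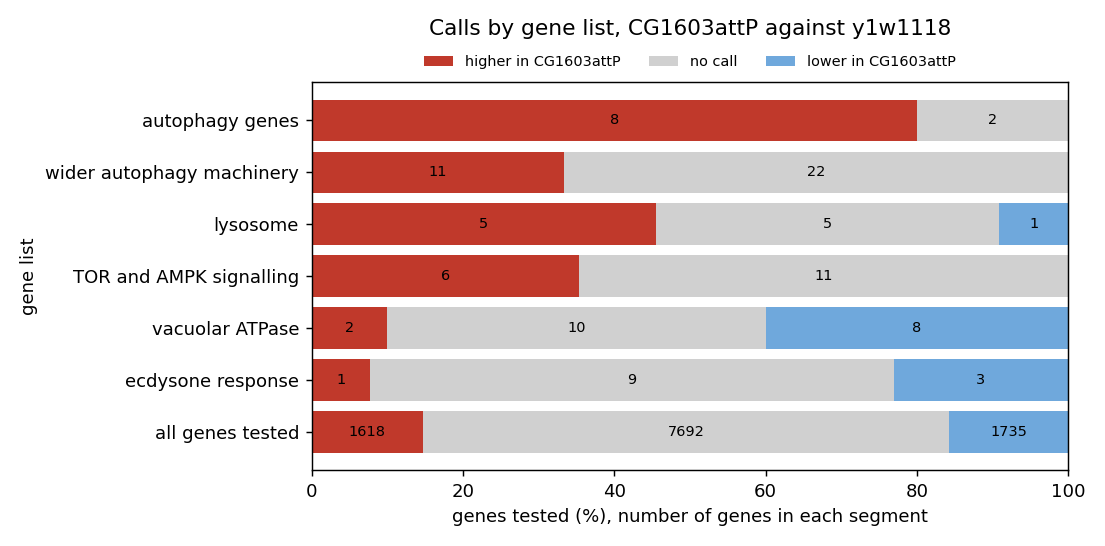
Share of the tested genes of each list called higher, not called or called lower in CG1603attP against y1w1118 (percent of genes tested, with the number of genes in each segment). The autophagy genes have 8 of 10 called higher, the vacuolar ATPase 8 of 20 called lower, and all genes tested 1618 higher and 1735 lower of 11045.

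Tissue markers differed between the genotypes too, and are given beside the 14.6% of all genes tested called higher and 15.7% called lower. All 10 muscle markers were lower in CG1603attP, with a median log2 fold change of -1.63 and a summed level of 20380.5 to 26831.9 CPM, against 79730.5 to 86388.3 CPM in y1w1118. Of 8 midgut markers 6 were tested and 3 were higher, with sums of 1975 to 3219.7 CPM in CG1603attP, against 774 to 961 CPM in y1w1118. Of 8 fat body markers 5 were tested and 2 were lower, with sums of 2496 to 4379 CPM in CG1603attP, against 13966 to 15706 CPM in y1w1118. Most of that sum was the lipoprotein gene apolpp, at 1802 to 3661 CPM in CG1603attP, against 12851 to 14516 CPM in y1w1118, while Apoltp was at 626 to 712 CPM in CG1603attP, against 1100.1 to 1182 CPM in y1w1118 (log2 fold change -0.76). Of the genes for storage proteins made late in larval life, Lsp1alpha and Lsp2 had 0 to 12 reads in every library of either genotype. Lsp1beta had 6, 4 and 28 reads in CG1603attP, against 35 and 4 in y1w1118. Lsp1gamma had 62, 34 and 65 reads in CG1603attP, against 93 and 63 in y1w1118. Neither Lsp1beta nor Lsp1gamma was called. The glue genes of the late larval salivary gland summed to at most 2.40 CPM in CG1603attP and 2.75 CPM in y1w1118. Of 4 neuron markers 1 was called higher, with sums of 690 to 799 CPM in CG1603attP against 490 to 513 CPM in y1w1118. In all 4 every CG1603attP library was above every y1w1118 library, an ordering seen in 28.9% of all genes tested. Testis markers were at 0 in the mutant libraries and at most 0.348 CPM in wild type. The part of these marker changes, and of the difference in ribosomal RNA share, in the levels of the autophagy genes was not tested.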

How the data were processed

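RNA-seq was performed on 3 CG1603attP and 2 y1w1118 larval libraries, grouped by the strain label. The authors used cutadapt for trimming and STAR for alignment to dm6, and the files they deposited, one for each library, hold raw counts in an unstranded and 2 stranded columns. The unstranded column was used, since the kit does not mark strand. The annotation release is not given in the sources used here. Reads over several genes or places were not assigned, so overlapping or duplicated genes can be undercounted. The 4 summary lines (unmapped 23.8 to 30.0%, multimapping 5.58 to 10.6%, no feature 4.15 to 6.22%, ambiguous 3.28 to 6.26% of reads) and 138 ribosomal RNA genes entered neither library sizes nor tests. Of the 17735 identifiers 138 had no symbol in the table used.

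The genotypes were compared by edgeR 4.0.16 (R 4.3.3), with filterByExpr (minimum count 10, minimum total 15), TMM factors, estimateDisp and the legacy form of glmQLFit followed by glmQLFTest, and with Benjamini-Hochberg adjustment over 11045 genes and a threshold of 0.05. The SE is the absolute log2 fold change over the square root of F. RPKM used merged exons of the Ensembl annotation of BDGP6, whose coordinates are those of dm6. The 18 alternatives covered normalization, filters, tool (DESeq2 1.42.0, limma 3.58.1 being loaded with edgeR), count column, ribosomal RNA genes, a replicate block and libraries left out. The members and lists were chosen with earlier results of these data known. Outside the members, the genes named were CG1603, all called genes of the wider machinery, direct partners or paralogs of a member, up to 4 called genes per direction in each other list, and some neighbours, partners and regulators picked after their values were seen. Promoter lists of the study were used for membership only.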

Additional observations from a re-analysis of the deposited data

How the results depend on the processing

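The log2 fold changes of the 10 members kept their sign in all 180 combinations of gene and alternative, and 0 members were called lower under any of the 18 alternatives. Members called higher numbered 8 with all libraries, 7 to 8 with single libraries left out (7 without either y1w1118 library, Atg18a being lost) and 5 without both libraries of the discordant pair (CG1603attP replicate 1 and y1w1118 replicate 2). Over the alternatives ref(2)P ranged from 2.17 to 2.41 (largest adjusted p 0.00656), Atg13 from 1.35 to 1.66 (0.00924) and Atg1 from 1.49 to 1.75 (0.0156), while Atg7 ranged from -1.08 to -0.13 and Atg5 from 0.43 to 0.61 without a call. The wider machinery had 11 higher, 17 with DESeq2, 17 with library size only, 3 to 11 with single libraries left out and 3 without both. Lysosomal genes higher were 5, 3 to 6 with single libraries left out and 3 without both. Lysosomal genes lower were 1, but 0 with library size only, with either stranded column, with the replicate block and without both, and 0 to 1 with single libraries left out. Vacuolar ATPase genes higher were 2, 1 to 2 with single libraries left out and 1 without both, and those lower were 8, 2 to 8 and 1. TOR and AMPK genes higher were 6, 1 to 8 with single libraries left out and 0 without both, and those lower were 0, 0 to 1 with single libraries left out and 1 with the replicate block. Ecdysone genes higher were 1, 2 with the current quasi-likelihood fit, 3 with DESeq2, 4 with library size only, 2 without a filter and 2 with the last stranded column, 0 to 3 with single libraries left out, and those lower were 3, with 1 to 4 when single libraries were left out. Without both, ecdysone genes were 1 higher and 4 lower. Calls over all genes, 1618 higher and 1735 lower, were 614 and 796 without y1w1118 replicate 1, 596 and 836 without replicate 2, and 607 and 992 without the discordant pair, where fewer libraries enter. The cause of the other shifts was not tested.

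Samples sharing a number had correlations of deviations from their group mean of -0.47 for number 1 and -0.24 for number 2. The deviations of the 2 wild-type libraries are mirror images, so CG1603attP replicate 1 and y1w1118 replicate 2 had 0.47. These values therefore cannot decide whether equal numbers mark a pairing. With the replicate block 8 members and 9 of the wider machinery were called higher. With 2 wild-type libraries, small changes such as that of Atg5, and those of genes with few reads such as Atg7 and Atg12, cannot be resolved.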
